A study of Chlamydomonas reinhardtii with 12 samples.

Results

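Old cultures of the inositol pyrophosphate-deficient strain vip1-1 of the green alga Chlamydomonas reinhardtii were compared with old cultures of wild-type cells. The comparison took the 3 vip1-1 and the 3 wild-type libraries that the labels assign to nutritional stress, 6 of the 12 libraries of the series, and all genes of the count table. Both genotypes carry the strain label CC-1690, and both were grown in liquid TAP (Tris-acetate-phosphate) medium at 25 °C under 50 µmol photons per square metre and second. Stress cultures were collected after 14 days and control cultures after 24 h, so culture age and nutrient state changed together. The labels call the 3 libraries of each group biological replicates. They give vip1-1 as a single mutant strain, with no other allele and no rescued strain, so a difference between genotypes cannot be told apart from any other difference between these 2 strains. The series asks what inositol pyrophosphates do when nutrients run out.

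Inositol pyrophosphates are inositol rings that carry diphosphate groups, and kinases of the VIP1 family make some of them. In yeast and land plants these molecules bind SPX domains, protein modules of phosphate sensing and transport, and so link the phosphate state of the cell to its transporters and transcription. In Chlamydomonas the vip1-1 strain is known for its sensitivity to rapamycin, an inhibitor of the TOR kinase, and for altered lipid storage. A culture of this alga left in the same medium divides until its nutrients become limiting and then enters a stationary state. Genes are described by their identifiers and by their levels, since the tables used here attach no product to any of them.

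Of 15286 genes tested, 239 (1.56%) differed between the genotypes in old cultures, taking a threshold of 0.05 on Benjamini-Hochberg adjusted p-values from the quasi-likelihood test of edgeR. Levels were higher in vip1-1 for 149 genes (0.975%) and lower for 90 genes (0.589%). The median log2 fold change was 2.67 among the higher genes and -1.56 among the lower genes, against 0.05 over all tested genes. In 230 of the 239 genes the log2 fold change was at least 1 in size. For all 239 the vip1-1 and wild-type stress libraries did not overlap in CPM (counts scaled to a common library size, after adjustment by the trimmed mean of M values), a separation that 31.3% of tested genes also showed.

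**Figure D1:**
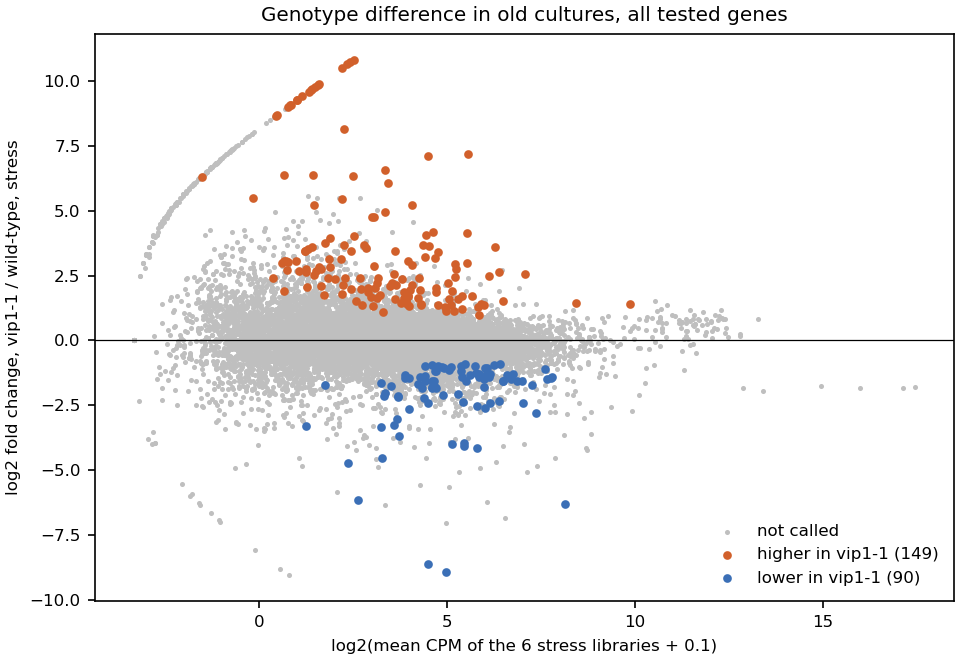
Each point is 1 of the 15286 tested genes, with the log2 of its mean CPM over the 6 stress libraries plus 0.1 on the x axis and its log2 fold change, vip1-1 over wild-type, on the y axis. Orange points are the 149 genes higher in vip1-1 and blue points the 90 genes lower in vip1-1, and the genes with the largest fold changes, at the top, are those at or near 0 counts in wild-type.

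The split between directions moved with the scaling. With library totals in place of the adjusted sizes, the median log2 fold change of all tested genes was 0.60 and 61 genes were higher and 7 lower. On the deposited FPKM (fragments scaled to gene length and library total), tested with limma, that median was 0.41 and 393 genes were higher and 41 lower. DESeq2, a different count model, called 527 higher and 552 lower genes, so the excess of higher genes is not common to all settings.

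The libraries differed in how many counts were left for most genes. Total counts in the 6 stress libraries were 11405177 to 19804077. Of these, 4 features that each exceeded 5% of some library, Cre08.g374100, Cre14.g634279, Cre14.g634322 and Cre14.g634365, took 24.8%, 63.6% and 51.1% in wild-type replicates 1 to 3 and 1.18%, 5.42% and 45.0% in vip1-1. Counts outside them ranged from 4956408 in wild-type replicate 2 to 18730558 in vip1-1 replicate 2, so a count of 3, used as the floor of detection, stood for 0.175 to 0.37 CPM in wild-type and 0.108 to 0.189 CPM in vip1-1. Removing those 4 features left 238 genes called, 220 of them among the 239. The part of this uneven abundance in the genotype difference was not tested. Of their tested neighbours in the annotation order, Cre08.g374150 was higher in vip1-1 and Cre14.g634236 lower (log2 fold change -0.90, edgeR adjusted p = 0.047), the latter a call lost whichever stress library was left out (-0.88, -0.93 and -0.89 without wild-type replicates 1 to 3, and -0.96, -0.90 and -0.83 without vip1-1 replicates 1 to 3).

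Many calls were lost when 1 stress library was left out. Leaving out 1 stress library at a time gave 161, 64 and 143 calls without wild-type replicates 1, 2 and 3, and 117, 59 and 53 calls without vip1-1 replicates 1, 2 and 3. A total of 43 genes, 30 higher and 13 lower, were called in all 6 of these fits, and 65 of the 239 were called in none. Such a fit also has fewer libraries, so a call can be lost while the fold hardly moves. In Cre03.g196300, called in none, the log2 fold change was 9.58 to 9.81 over the 6 fits, against 9.76 with all libraries. The share of losses due to the smaller number of libraries was not tested. Where such a fit ended the call of a gene described below, this is given beside its values.

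One class of genes was read in vip1-1 and not detected in wild-type old cultures. Among the 149 higher genes, 23 had 3 counts or fewer in each of the 3 wild-type stress libraries, and 12 of these had 3 counts or fewer in all 6 wild-type libraries, stress and control. Across all tested genes, 40 (0.262%) met that last condition, and only 1 gene met its reverse in the 6 vip1-1 libraries. The share of all tested genes at 3 counts or fewer in the 3 wild-type stress libraries is not given here. The 23 genes are therefore not set against a background. No gene lower in vip1-1 had 3 counts or fewer in all 3 vip1-1 stress libraries. This floor depends on depth, since 3 counts stood for 0.175 to 0.37 CPM in wild-type stress and 0.108 to 0.189 CPM in vip1-1 stress. Cre07.g334750 and Cre11.g477550 missed it only through 8 and 7 counts in vip1-1 replicate 2, at 0.29 and 0.25 CPM. With at least 1 CPM also required in all 6 libraries of the other genotype, 11 genes were undetected in wild-type and 0 in vip1-1. That limit lies little above the floor of the shallowest wild-type library. In control, 3 counts stood for 0.11 to 0.892 CPM in wild-type and 0.0769 to 0.108 CPM in vip1-1. With at least 5 CPM required instead, 1 gene was undetected in wild-type and 0 in vip1-1.

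The 8 largest fold changes in this direction, among genes reaching a mean of 5 CPM, all belonged to this class. No wild-type library held a count of Cre16.g674151. Its level in vip1-1 old cultures was 13.3, 8.18 and 9.95 CPM, and in vip1-1 control 13.9, 15.5 and 14.6 CPM. Against the floor of the shallowest wild-type stress library it was at least 28.4-fold higher in vip1-1 (edgeR adjusted p = 0.0014), and the gene was called in all 6 leave-one-out fits. The gene was thus read in every vip1-1 library and in no wild-type library, at both ages of culture.

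Cre12.g532300 was likewise at 0 counts across wild-type and was at 6.55, 12.6 and 10.7 CPM in vip1-1 old cultures, at least 26.9-fold higher (edgeR adjusted p = 0.0099). In vip1-1 control it was at 15.6, 15.9 and 4.69 CPM. Cre03.g201888, again at 0 counts throughout wild-type, had 11.1, 10.9 and 11.7 CPM in vip1-1 old cultures. These 3 libraries lay within 1 CPM of each other, and the difference was at least 30.4-fold (edgeR adjusted p = 0.017). The call for Cre03.g201888 was lost without vip1-1 replicate 2, vip1-1 replicate 3 or wild-type replicate 2, with adjusted p from 0.044 to 0.075 over the 6 fits, whereas that for Cre12.g532300 was kept in all 6.

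Lower levels of the same kind were found for Cre16.g673400, with 4.5, 3.69 and 7.06 CPM in vip1-1 old cultures, for Cre02.g117450, with 9, 4.49 and 3.59 CPM, and for Cre13.g571902, with 4.91, 4.78 and 7.94 CPM. Each had 0 counts in all 3 wild-type stress libraries. The lower bounds on their folds were 13.7, 15.4 and 15.9 (edgeR adjusted p = 0.02, 0.019 and 0.0092). Cre13.g571902 kept its call in 5 of 6 leave-one-out fits, losing it without vip1-1 replicate 3, while Cre16.g673400 and Cre02.g117450 lost theirs without vip1-1 replicates 2 or 3 or wild-type replicates 1 or 2, with adjusted p up to 0.1 and 0.075.

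Among the 8 genes with the largest increases, Cre03.g196300 had the lowest mean in fresh vip1-1 cultures. Means were also lower in fresh than in old vip1-1 cultures in Cre16.g673400, Cre02.g117450, Cre13.g571902 and Cre03.g201888. They were higher in fresh ones in Cre07.g335100, Cre12.g532300 and Cre16.g674151. In vip1-1, Cre03.g196300 was at 5.2, 4.7 and 6.3 CPM after 14 days and at 0.323, 0.384 and 0.914 CPM after 24 h, and it had 0 counts in every wild-type library. The difference in old cultures was at least 14.6-fold (edgeR adjusted p = 0.022), but the call was lost whichever stress library was left out, with adjusted p from 0.05 to 0.11. Cre07.g335100 was at 0 in the 3 wild-type stress libraries and at 4.97, 11.7 and 10.7 CPM in vip1-1, at least 24.6-fold higher (edgeR adjusted p = 0.016). That call was lost without vip1-1 replicate 2, vip1-1 replicate 3 or wild-type replicate 2, with adjusted p from 0.031 to 0.069.

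The 23 genes at the floor in old wild-type cultures were read in part in fresh ones. In control replicates 1, 2 and 3 of wild-type, 6, 7 and 14 of them had at least 1 count, and their summed level was 43.7, 36.2 and 25.9 CPM. The number with a count depends on depth, since 3 counts stood for 0.892, 0.219 and 0.11 CPM in those libraries. Summed levels in vip1-1 were 207, 207 and 99.8 CPM in control and 114, 114 and 129 CPM in old cultures, above every wild-type library. The 23 genes were chosen by their stress levels, so the order of the genotypes in old cultures follows from that choice.

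Other genes of the 23 were undetected in wild-type only when the culture was old. Levels of at least 1 CPM in 2 or more wild-type control libraries were present for 6 of them, with no share over all tested genes given here. The examples that follow, and all others said to be chosen by their values, were picked after the values were seen. Cre07.g326700 was at 8.92, 10.8 and 3.49 CPM in wild-type control and at 0 counts in all 3 wild-type stress libraries, while vip1-1 old cultures kept 4.38, 3.69 and 3.4 CPM (at least 10.3-fold, edgeR adjusted p = 0.016). Its call was lost without vip1-1 replicate 2, vip1-1 replicate 3 or wild-type replicate 2, with adjusted p from 0.046 to 0.058. Cre04.g220750 was likewise at 5.35, 1.02 and 2.06 CPM in wild-type control, at 0 counts in wild-type stress and at 5.03, 5.5 and 4.54 CPM in vip1-1 stress. It was at least 13.6-fold higher in vip1-1 (edgeR adjusted p = 0.011) and was called in all 6 leave-one-out fits.

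**Figure D2:**
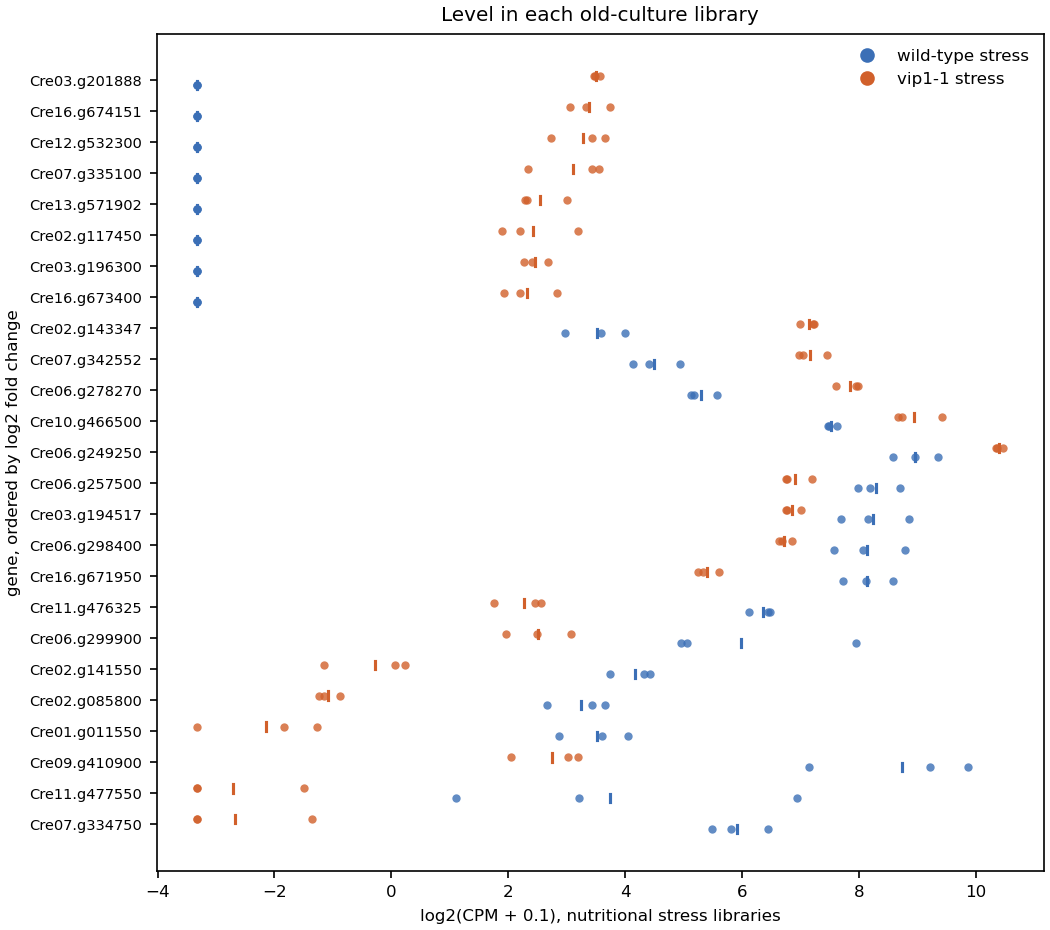
Each row is a gene named for its size of difference or its counts, and each dot 1 stress library, blue for wild-type and orange for vip1-1, on a log2 scale of CPM plus 0.1; the short bars are means of the 3 log2 values. The top 8 genes are at 0 CPM in wild-type, and for Cre11.g477550 and Cre06.g299900 1 wild-type library lies far above the others.

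Another class was nearly undetected in wild-type at both ages of culture but not at 0. Cre16.g681200 had 0.876, 0.986 and 0 CPM in wild-type stress and 85.8, 93.9 and 98.8 CPM in vip1-1 stress. The vip1-1 libraries lay close together and far above all wild-type libraries, with a log2 fold change of 7.20 (SE 0.81, edgeR adjusted p = 0.0017). In control cultures the levels were 0, 0 and 0.514 CPM in wild-type and 110, 104 and 128 CPM in vip1-1, a difference that was called too (log2 fold change 8.66, edgeR adjusted p = 0.0021). The interaction, which tests whether the genotype difference differs between old and fresh cultures, was not called for this gene (log2 difference -1.46, edgeR adjusted p = 0.78).

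Cre16.g681200 lies in the longest run of called neighbours, 3 genes on chromosome 16 that were all higher in vip1-1. Its neighbour Cre16.g681100 had 0.292, 0 and 0 CPM in wild-type stress and 10.1, 10 and 12.5 CPM in vip1-1 stress (edgeR adjusted p = 0.0068). The fitted log2 fold change was 6.35 (SE 0.79) and became 10.79 without wild-type replicate 1, the only wild-type library with a count. The other neighbour, Cre16.g681250, showed a different order of groups. It was at 14.4, 11.6 and 4.88 CPM in wild-type stress and 87.5, 81.2 and 77.9 CPM in vip1-1 stress, against 0 to 1.24 CPM in wild-type control and 3.75 to 5.3 CPM in vip1-1 control. Its log2 fold change in old cultures was 3.00 (SE 0.47, edgeR adjusted p = 0.013), with the call lost without vip1-1 replicates 2 or 3 (3.00 and 3.04) or wild-type replicate 2 (3.07). The control difference of Cre16.g681250 was not called (log2 fold change 2.5, edgeR adjusted p = 0.094). Old cultures of each genotype stood above that genotype's control libraries in this gene.

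Chosen by their values, Cre12.g537611 and Cre01.g021350 had the same form as Cre16.g681200. Cre12.g537611 had 0.526, 0.37 and 0 CPM in wild-type stress and 38.9, 52.4 and 41.9 CPM in vip1-1 stress, with 0 counts in wild-type control and 59, 59.8 and 73.1 CPM in vip1-1 control. Its log2 fold change in old cultures was 7.09 (SE 0.59, edgeR adjusted p = 0.001) and 8.03 without wild-type replicate 1. Cre01.g021350 had 0.876, 0.247 and 0.469 CPM in wild-type stress and 12.8, 14.7 and 18.6 CPM in vip1-1 stress (log2 fold change 4.74, SE 0.42, edgeR adjusted p = 0.0012). The fold was 5.36 on the log2 scale without wild-type replicate 1. In control cultures Cre01.g021350 had 0 counts in wild-type and 29.2, 25.1 and 31 CPM in vip1-1. For both genes, wild-type counts were seen in old but not in fresh cultures.

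In most higher genes the old wild-type cultures were the lowest group. In 112 of the 149 (75.2%) the wild-type stress mean was the lowest of the 4 group means, against 45.1% of the 8111 tested genes with a positive log2 fold change. The 149 were chosen for their difference between the stress groups, and the 8111 include differences of any size. Part of this excess can therefore follow from the choice. The vip1-1 stress mean was the highest of the 4 in 69 (46.3%), against 57.1% of those 8111 genes. Median levels of the 149 genes were 6.42 CPM in wild-type control, 2.13 CPM in wild-type stress, 13.5 CPM in vip1-1 control and 13.4 CPM in vip1-1 stress. Across all tested genes the same medians were 8.9, 10.7, 9.68 and 10.8 CPM. Per length, the median deposited FPKM of the higher genes was 0.412 in wild-type stress and 6.33 in vip1-1 stress, against 2.95 and 4.46 over all tested genes.

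**Figure D3:**
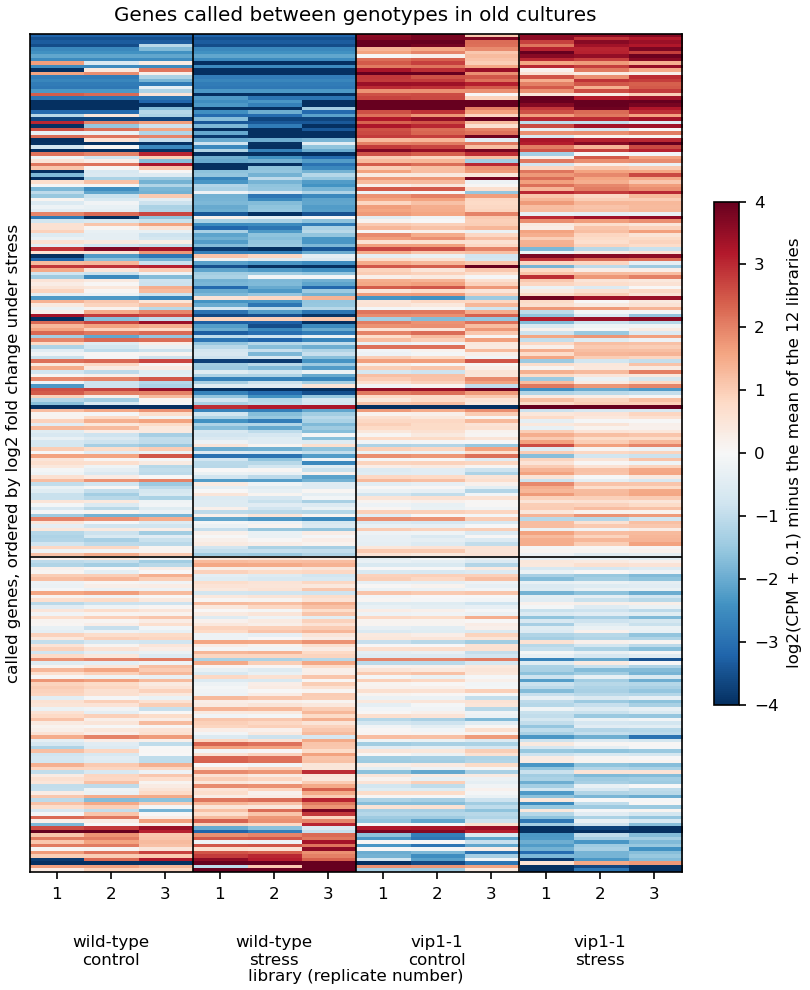
Rows are the 239 called genes in order of log2 fold change in old cultures and columns the 12 libraries by group. Colour gives log2 of CPM plus 0.1 minus the gene's mean over the 12 libraries, red above and blue below, and the line parts the 149 higher from the 90 lower genes. Wild-type stress forms the bluest block among the higher genes and vip1-1 stress among the lower genes, which were chosen by the difference between these groups.

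Some higher genes were read in fresh cultures of both genotypes and fell lower in old wild-type than in old vip1-1 cultures. A fall in both genotypes was no more frequent among the higher genes (27.5%) than among all tested genes with a positive log2 fold change (28.0%). In 5 of the 6 genes called in the interaction (0.0393% of tested genes) old wild-type cultures were the lowest group. In 1 of these 5, Cre03.g154400, old vip1-1 cultures were not below control. Cre17.g696500, chosen by its values, was at 2.45, 1.23 and 2.35 CPM in wild-type stress and 22.3, 21.4 and 22.8 CPM in vip1-1 stress, against 106, 132 and 172 CPM in wild-type control and 89.5, 81.4 and 107 CPM in vip1-1 control. The vip1-1 stress libraries lay within 2 CPM of each other. The genotype difference was 3.43 on the log2 scale in old cultures (SE 0.30, edgeR adjusted p = 0.00076) and -0.56 in control (SE 0.26, edgeR adjusted p = 0.77). The interaction calls depended on single libraries: there were 0 calls without vip1-1 control replicates 1 or 2, 1 without any one of vip1-1 stress replicate 3, wild-type stress replicates 1 and 2 and the wild-type control library of replicate 2, 3 without wild-type control replicate 1, 17 without wild-type stress replicate 3 and 493 without wild-type control replicate 3.

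Cre09.g396772, chosen by its values, was at 5.31, 5.42 and 4.5 CPM in wild-type stress and 41.9, 51.4 and 44 CPM in vip1-1 stress (log2 fold change 3.17, SE 0.27, edgeR adjusted p = 0.00076). Its control levels were 48.5 to 97.1 CPM in wild-type and 61.5 to 65.3 CPM in vip1-1, so old vip1-1 cultures stood near the control range and old wild-type cultures far below it. Cre03.g154400, also chosen by its values, was at 2.8, 4.56 and 2.63 CPM in wild-type stress and 35.9, 21.7 and 25.4 CPM in vip1-1 stress (log2 fold change 3.07, SE 0.29, edgeR adjusted p = 0.00082). Its 6 control libraries lay between 16.9 and 21.4 CPM, in between the old cultures of the 2 genotypes.

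In Cre09.g397660, chosen by its values, both genotypes were far lower in old than in fresh cultures, wild-type more so. Levels were 5.84, 4.93 and 7.41 CPM in wild-type stress and 23.4, 32.7 and 39.2 CPM in vip1-1 stress, against 175, 225 and 212 CPM in wild-type control and 106, 90.4 and 141 CPM in vip1-1 control. The log2 fold change in old cultures was 2.39 (SE 0.28, edgeR adjusted p = 0.0019). Control means were lower in vip1-1, so the order of the genotypes was opposite at the 2 ages, although the control difference was not called (-0.86, edgeR adjusted p = 0.36).

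Cre14.g620600, a gene named by its position in a run, was also called in the interaction. It was at 22, 23.3 and 17.6 CPM in wild-type stress and 87.8, 177 and 89 CPM in vip1-1 stress. Control levels were 1637 to 2677 CPM in wild-type and 941 to 1396 CPM in vip1-1. The log2 fold change in old cultures was 2.49 (SE 0.33, edgeR adjusted p = 0.0055), with vip1-1 replicate 2 far above the other two. Its annotated neighbour on chromosome 14, Cre14.g620702, was at 7.01, 4.93 and 3.1 CPM in wild-type stress and 31.9, 148 and 83.7 CPM in vip1-1 stress (log2 fold change 4.12, SE 0.62, edgeR adjusted p = 0.011). That value was 3.52 without vip1-1 replicate 2, and the call was lost without wild-type replicate 2 (4.09). Both neighbours were highest in the same vip1-1 library.

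Cre17.g696700 and Cre17.g696750, neighbours in a run on chromosome 17, differed from each other. Cre17.g696700 was at 0.409, 0 and 1.5 CPM in wild-type stress, 7.31, 14.6 and 10 CPM in vip1-1 stress and 52.4 to 120 CPM in the 6 control libraries (log2 fold change 4.03, SE 0.72, edgeR adjusted p = 0.02). It was 5.31 without wild-type replicate 3, and the call was lost without vip1-1 replicates 2 or 3 (3.73 and 4.06) or wild-type replicates 1 or 2 (3.72 and 3.52). Cre17.g696750 instead was highest in old vip1-1 cultures, at 94.5, 61.8 and 77.2 CPM against 27, 22.6 and 22 CPM in wild-type stress. Control levels of Cre17.g696750 were 15.5 to 19.3 CPM in wild-type and 28.9 to 30.6 CPM in vip1-1. Its log2 fold change was 1.71 (SE 0.21, edgeR adjusted p = 0.0032), and the call was kept in all 6 leave-one-out fits.

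Chosen by their values, Cre11.g481600 and Cre12.g533100 were also high in fresh cultures. Cre11.g481600 was at 2.69, 3.45 and 1.59 CPM in wild-type stress and 23.5, 60.8 and 56.3 CPM in vip1-1 stress, against 239 to 495 CPM in the 6 control libraries (log2 fold change 4.19, SE 0.47, edgeR adjusted p = 0.0017). Cre12.g533100 was at 0.292, 0 and 0 CPM in wild-type stress and 3.57, 6.01 and 5.92 CPM in vip1-1 stress, with 21.8 to 81.8 CPM in control. Its fitted log2 fold change of 5.24 (SE 0.69, edgeR adjusted p = 0.0047) became 9.72 without wild-type replicate 1, the only wild-type stress library with a count. Over all higher genes, both stress means lay below both control means in 41 (27.5%), close to the 28.0% among the 8111 tested genes with a positive log2 fold change.

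Another class was highest in old vip1-1 cultures. The 5 higher genes with the most counts all belonged to it. Cre06.g249250 had 649, 498 and 382 CPM in wild-type stress and 1318, 1419 and 1303 CPM in vip1-1 stress, a log2 fold change of 1.40 (SE 0.25, edgeR adjusted p = 0.019). The vip1-1 libraries agreed closely. Replicate 2 lay above the control range of 821 to 1334 CPM, and replicates 1 and 3 lay within it, near its upper end. The call was lost without wild-type replicate 2 (1.37) or without vip1-1 replicates 1, 2 or 3 (1.42, 1.36 and 1.42).

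Cre10.g466500 was at 196, 180 and 178 CPM in wild-type stress and 682, 409 and 426 CPM in vip1-1 stress (log2 fold change 1.45, SE 0.31, edgeR adjusted p = 0.042). Its call was lost in each leave-one-out fit, at log2 fold changes of 1.18 without vip1-1 replicate 1, the highest library, to 1.58. Cre06.g278270 was at 47.2, 36.2 and 35 CPM in wild-type stress and 252, 248 and 194 CPM in vip1-1 stress (log2 fold change 2.55, SE 0.34, edgeR adjusted p = 0.0055). Its control levels of 35 to 83.8 CPM did not separate the genotypes (log2 fold change 0.10, edgeR adjusted p = 0.98). The call in old cultures was kept in all 6 leave-one-out fits.

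Levels of Cre07.g342552 were 17.5, 21.1 and 30.7 CPM in wild-type stress and 176, 125 and 132 CPM in vip1-1 stress, while all 6 control libraries were at 1.87 to 4.29 CPM. The gene was above its control level in old cultures of both genotypes and 2.64 higher on the log2 scale in vip1-1 (SE 0.32, edgeR adjusted p = 0.0029). For Cre02.g143347 the levels were 15.9, 11.8 and 7.7 CPM in wild-type stress and 149, 128 and 150 CPM in vip1-1 stress. Control levels were 4.31 to 8.92 CPM in wild-type and 6.21 to 18.1 CPM in vip1-1, and the log2 fold change in old cultures was 3.58 (SE 0.45, edgeR adjusted p = 0.0032). Both calls were kept in all 6 leave-one-out fits.

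Further genes of this form were chosen by their values. Cre14.g617200 had 0 counts in all 6 control libraries, 13.1, 15.3 and 16.2 CPM in wild-type stress and 63.1, 46.6 and 57.3 CPM in vip1-1 stress. It was read only in old cultures and was 1.90 higher on the log2 scale in vip1-1 (SE 0.26, edgeR adjusted p = 0.018). This call was kept only without wild-type replicate 3, and the log2 fold change was 1.80 to 2.02 over the 6 fits (1.80, 2.02 and 1.88 without vip1-1 replicates 1, 2 and 3, and 1.82 and 1.90 without wild-type replicates 1 and 2). Cre06.g267400 was at 4.5, 4.44 and 3.47 CPM in wild-type stress and 40.2, 35.4 and 39.1 CPM in vip1-1 stress (log2 fold change 3.20, SE 0.30, edgeR adjusted p = 0.00082).

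Cre04.g218900, also chosen by its values, was at 2.8, 2.22 and 3.75 CPM in wild-type stress and 28.1, 32.2 and 52.5 CPM in vip1-1 stress (log2 fold change 3.68, SE 0.38, edgeR adjusted p = 0.0012). Cre08.g374150, the annotated neighbour of 1 of the 4 very abundant features, was at 4.73, 3.45 and 1.97 CPM in wild-type stress and 49.6, 41.6 and 34.9 CPM in vip1-1 stress (log2 fold change 3.62, SE 0.40, edgeR adjusted p = 0.0016). All calls of Cre06.g267400, Cre04.g218900 and Cre08.g374150 held in the 6 leave-one-out fits. Over the 149 higher genes, 17 (11.4%) had both stress means above both control means, against 37.9% of the 8111 tested genes with a positive log2 fold change.

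Of the runs of called neighbours, a pair on chromosome 13 held Cre13.g607200, at 6.01, 3.94 and 3.75 CPM in wild-type stress and 9.59, 10.6 and 14.1 CPM in vip1-1 stress. Its log2 fold change was 1.31 (SE 0.26, edgeR adjusted p = 0.03), and it was called in only 1 leave-one-out fit, the one without wild-type replicate 1. In the others it was 1.42, 1.36 and 1.13 without vip1-1 replicates 1, 2 and 3 and 1.2 and 1.18 without wild-type replicates 2 and 3. The other member of that pair, Cre13.g607150, and both members of the second pair on chromosome 16, Cre16.g686400 and Cre16.g686350, stayed under the 5 CPM of the naming rule and had 0 counts in all 3 wild-type stress libraries. Their calls were weakly held: Cre13.g607150 was called in 1 of the 6 leave-one-out fits, without vip1-1 replicate 1 (adjusted p from 0.044 to 0.11 over the 6 fits of edgeR), Cre16.g686350 in 2, without vip1-1 replicate 1 or wild-type replicate 3 (0.046 to 0.088), and Cre16.g686400 in 0 (0.083 to 0.13).

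Among the 90 genes lower in vip1-1, both vip1-1 means lay below both wild-type means in 49 (54.4%), against 15.7% of the 7157 tested genes with a negative log2 fold change. The 90 were chosen for their stress difference and the 7157 were not, so part of this excess can follow from the choice. One of the 49 was Cre11.g476325, at 87.4, 89.3 and 69.6 CPM in wild-type stress and 3.27, 5.83 and 5.42 CPM in vip1-1 stress. In control the levels were 66.9, 66.2 and 35.2 CPM in wild-type and 3.05, 2.02 and 3.59 CPM in vip1-1. The log2 fold change was -4.08 in old cultures (SE 0.36, edgeR adjusted p = 0.00076) and -4.27 in control (SE 0.36, edgeR adjusted p = 0.00057). The interaction was 0.19 (edgeR adjusted p = 0.95). The counts of Cre11.g476325 followed those of Cre16.g673852 within 1.13-fold in every library, so reads of the 2 may be shared and which of them differed is uncertain.

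Cre02.g141550 showed the same pattern, with 21.3, 19.9 and 13.3 CPM in wild-type stress and 0.351, 0.941 and 1.07 CPM in vip1-1 stress (log2 fold change -4.51, SE 0.52, edgeR adjusted p = 0.0019). Its control difference was -4.57 (edgeR adjusted p = 0.0038). Cre02.g085800 was at 10.7, 12.4 and 6.19 CPM in wild-type stress and 0.351, 0.326 and 0.441 CPM in vip1-1 stress, -4.70 on the log2 scale (SE 0.60, edgeR adjusted p = 0.0036). In wild-type its control levels were lower, at 2.98, 3 and 3.08 CPM. Both genes were called in all 6 leave-one-out fits.

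Cre16.g671950 was at 278, 384 and 211 CPM in wild-type stress and 37.9, 48.4 and 40.1 CPM in vip1-1 stress (log2 fold change -2.79, SE 0.45, edgeR adjusted p = 0.013), and was lower in vip1-1 control too (-3.13, edgeR adjusted p = 0.021). Its call in old cultures was lost without vip1-1 replicates 1, 2 or 3 (-2.72, -2.90 and -2.75). Cre01.g011550 was at 16.5, 12.1 and 7.23 CPM in wild-type stress and 0, 0.181 and 0.315 CPM in vip1-1 stress (log2 fold change -6.13, SE 1.35, edgeR adjusted p = 0.049). This call was lost in each leave-one-out fit, at -6.78 to -5.60 (-5.60, -6.22 and -6.78 without vip1-1 replicates 1 to 3, and -5.82, -6.14 and -6.39 without wild-type replicates 1 to 3). In wild-type control Cre01.g011550 ranged from 0 to 13 CPM.

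The 3 further lower genes with the most counts differed less. Cre06.g257500 was at 292, 252 and 418 CPM in wild-type stress and 146, 108 and 108 CPM in vip1-1 stress (log2 fold change -1.41, SE 0.25, edgeR adjusted p = 0.019). Both groups were below the control levels of 725 to 1070 CPM in wild-type and 480 to 516 CPM in vip1-1. The call was lost without vip1-1 replicates 2 or 3 (-1.34 in both). Cre06.g298400 was at 191, 268 and 439 CPM against 115, 103 and 99.2 CPM (log2 fold change -1.50, SE 0.28, edgeR adjusted p = 0.024), and its counts followed those of Cre03.g194517 within 1.17-fold in every library, so the 2 are uncertain as separate genes. Cre03.g194517 itself was at 206, 286 and 463 CPM against 129, 109 and 108 CPM (log2 fold change -1.46, SE 0.29, edgeR adjusted p = 0.029) and was called in 1 leave-one-out fit, without wild-type replicate 1, being -1.55, -1.43 and -1.42 without vip1-1 replicates 1 to 3 and -1.56 and -1.09 without wild-type replicates 2 and 3. Cre06.g298400 was called in 2 leave-one-out fits, without wild-type replicates 1 or 3, and was -1.57, -1.48 and -1.47 without vip1-1 replicates 1 to 3 and -1.60 without wild-type replicate 2.

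Other lower genes were highest in old wild-type cultures. In 58 of the 90 (64.4%) the wild-type stress mean was the highest of the 4 group means, against 57.4% of the 7157 genes with a negative log2 fold change. Cre09.g410900 had 0 counts in all 3 wild-type control libraries and at most 0.274 CPM in vip1-1 control. In old cultures it reached 141, 594 and 930 CPM in wild-type and 4.03, 8 and 9.07 CPM in vip1-1, a log2 fold change of -6.30 (SE 0.86, edgeR adjusted p = 0.011). The gene was above its control level in all 6 old cultures, and the lowest wild-type library was far above the highest vip1-1 library. Its call was lost without vip1-1 replicates 2 or 3 (-6.40 and -6.53), and the log2 fold change was -5.71 without wild-type replicate 3.

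Cre07.g334750 was at 55.9, 44.8 and 87 CPM in wild-type stress and 0, 0.289 and 0 CPM in vip1-1 stress. Control levels were 3.57 to 5.33 CPM in wild-type and 1 to 3.69 CPM in vip1-1, so old cultures stood above the control range in wild-type and below it in vip1-1. The log2 fold change was -8.93 (SE 0.92, edgeR adjusted p = 0.0012). It rested on the few counts of vip1-1 replicate 2, being -13.24 without that library, and the call was kept in all 6 leave-one-out fits. It was the only gene lower in vip1-1 that the interaction called.

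Chosen by its values, Cre10.g426800 was at 165, 177 and 310 CPM in wild-type stress and 51.1, 36.5 and 36 CPM in vip1-1 stress, with 11.1 to 20.8 CPM in control (log2 fold change -2.40, SE 0.31, edgeR adjusted p = 0.0045). Old cultures of both genotypes were thus above the control range, wild-type more so. Cre12.g525990, chosen by its values, was at 52, 47 and 22.6 CPM in wild-type stress and 12.6, 10.9 and 10.8 CPM in vip1-1 stress, with 3.66 to 7.08 CPM in control (log2 fold change -1.83, SE 0.31, edgeR adjusted p = 0.017). Its counts followed those of Cre12.g526201 and Cre12.g526339 within 1.12-fold, so the 3 are uncertain as separate genes. The call was kept only without wild-type replicate 3, and the value was -1.90, -1.80 and -1.79 without vip1-1 replicates 1 to 3 and -1.61 and -1.73 without wild-type replicates 1 and 2.

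Among the lower genes named by rule, Cre11.g477550 and Cre06.g299900 had 1 wild-type stress library, replicate 3, far above the other two. Cre11.g477550 was at 2.04, 9.12 and 122 CPM in wild-type stress and 0, 0.253 and 0 CPM in vip1-1 stress (log2 fold change -8.61, SE 1.57, edgeR adjusted p = 0.022). The control libraries were at 11.2 to 15.7 CPM in both genotypes, above all old cultures other than that 1 library. Without wild-type replicate 3 the log2 fold change was -5.61 and the call was kept, and without vip1-1 replicates 1, 2 or 3 the call was lost (-8.14, -12.75 and -8.20). Cre06.g299900 was at 33.1, 30.9 and 248 CPM in wild-type stress and 5.55, 8.36 and 3.78 CPM in vip1-1 stress (log2 fold change -4.13, SE 0.75, edgeR adjusted p = 0.022). The value was -2.43 without wild-type replicate 3, with the call kept, and the call was lost without vip1-1 replicates 1, 2 or 3 (-4.09, -4.48 and -3.92). Wild-type replicate 3 was the highest of the 3 wild-type stress libraries in 58 of the 90 lower genes (64.4%), against 36.5% of all tested genes.

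Several lower genes were alike in level between genotypes in control, or less apart there than in old cultures. They were chosen by their values. Cre12.g485800 was at 142, 152 and 165 CPM in wild-type stress and 46.5, 63.4 and 52.9 CPM in vip1-1 stress, with 237 to 299 CPM in control (log2 fold change -1.50, SE 0.20, edgeR adjusted p = 0.0055). Cre11.g467700 was at 184, 171 and 163 CPM against 73.5, 55.1 and 49 CPM, with 204 to 292 CPM in control (log2 fold change -1.54, SE 0.21, edgeR adjusted p = 0.0058). Both genes stood below their control range in old cultures of either genotype, lower in vip1-1.

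Cre05.g243450, chosen in the same way, was at 63, 72.1 and 53.3 CPM in wild-type stress and 12.6, 16.9 and 15.8 CPM in vip1-1 stress (log2 fold change -2.06, SE 0.21, edgeR adjusted p = 0.001). Its control levels were 67.8 to 70.2 CPM in wild-type and 30 to 37 CPM in vip1-1, a difference of -1.05 that was not called (edgeR adjusted p = 0.066). Cre16.g680230 was at 97.3, 98.8 and 160 CPM in wild-type stress and 25.5, 22.3 and 20 CPM in vip1-1 stress (log2 fold change -2.39, SE 0.25, edgeR adjusted p = 0.0012), and its control difference of -1.45 was called (edgeR adjusted p = 0.037). Wild-type replicate 3 stood above replicates 1 and 2 in this gene, and the log2 fold change in old cultures was -2.12 without that library. All 4 of these genes were called in every leave-one-out fit.

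Genotype differences in fresh cultures were fewer. In control, 39 genes (0.255%) were called, and 20 of them were also called in old cultures, 14 higher and 6 lower. The control and stress comparisons share no library. Of the 149 genes higher in old vip1-1 cultures, 113 (75.8%) had a positive log2 fold change in control, against 62.7% of the 8111 tested genes with a positive one in old cultures. Of the 90 lower genes, 73 (81.1%) had a negative one in control, against 46.0% of the 7157 tested genes with a negative one in old cultures. The median control log2 fold change was 0.78 for the higher genes, -0.27 for the lower genes and 0.11 for all tested genes. The number called in control rose to 849 when wild-type control replicate 3 was left out, and fell to 9 without wild-type control replicate 2 or vip1-1 control replicate 1 and to 11 without vip1-1 control replicate 2.

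**Figure D4:**
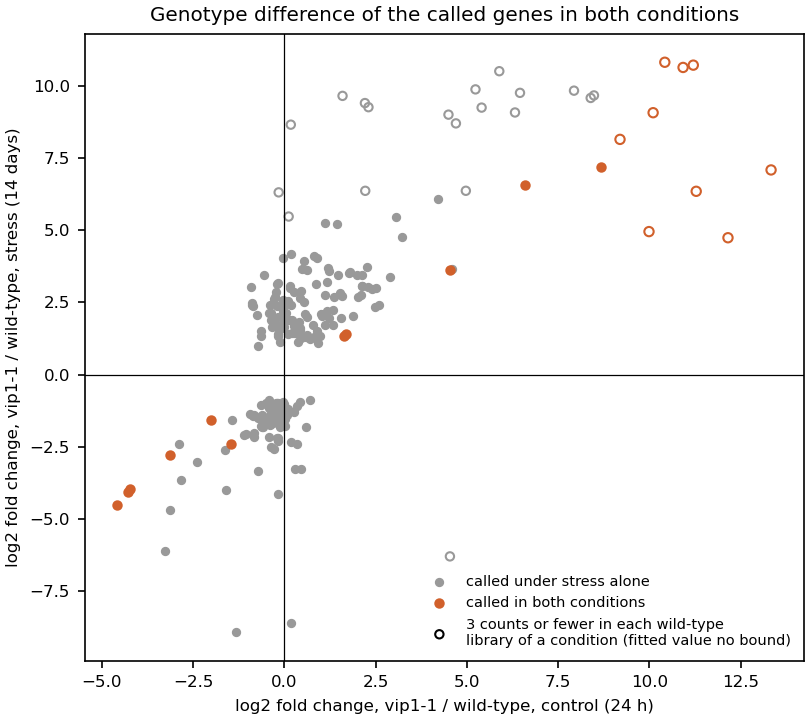
Each point is 1 of the 239 called genes, with its log2 fold change between genotypes in control cultures on the x axis and in old cultures on the y axis. Orange marks the 20 genes called in both conditions, grey the others, and open circles are genes with 3 counts or fewer in all wild-type libraries of a condition, whose fitted fold is no bound; the 113 higher and 73 lower genes with the same sign in control lie in the upper right and lower left.

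Called genes were spread over all chromosomes, with some uneven stretches. The share of tested genes called was 1.1% on chromosome 2, 2.7% (31 of 1148) on chromosome 16 and 2.78% (5 of 180) on chromosome 15. All 10 called genes of chromosome 4 were higher in vip1-1, whereas 12 of the 17 on chromosome 6 were lower, against 62.3% higher over all 239 called genes. These numbers per chromosome are small, and direction by chromosome was not tested. In windows of 100 tested neighbours the median was 1 called gene, and 33 of 143 windows held none. The windows with the most calls, 7 each, were 1 on chromosome 16 and the first on chromosome 17. The chromosome 16 window, from Cre16.g675900 to Cre16.g673729 in annotation order, held Cre16.g674151, Cre16.g673400, Cre16.g671950 and Cre16.g673852, with 2 higher and 5 lower genes, and 5 of its genes were called in control.

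**Figure D5:**
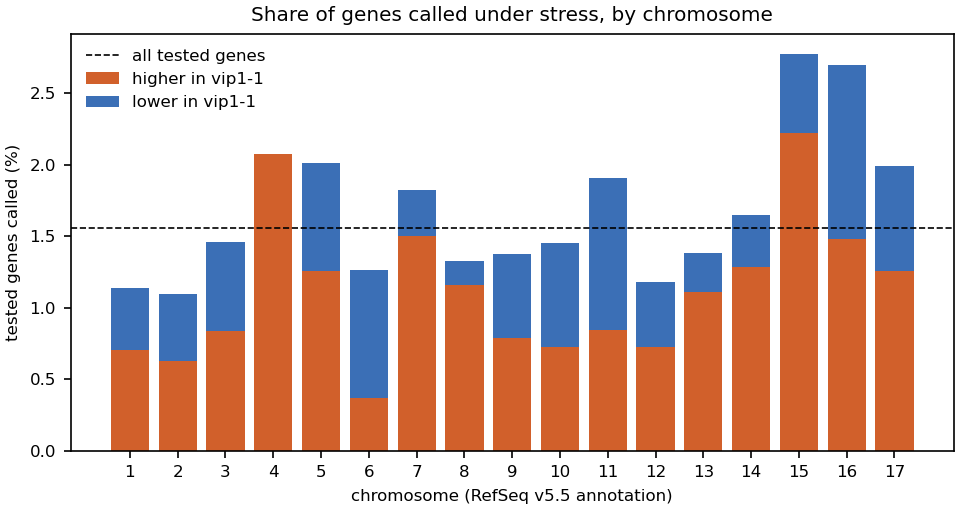
Bars give the percent of tested genes on each chromosome that were called in old cultures, orange for higher and blue for lower in vip1-1. The dashed line is the 1.56% of all tested genes, and chromosomes 15 and 16 stand highest, chromosome 15 with only 180 tested genes.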

How the data were processed

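Polyadenylated RNA was purified with the ISOLATE II RNA Plant Kit and sequenced from TruSeq Stranded mRNA libraries, per the labels' protocols. The authors deposited a table of whole-number counts per gene and a table of FPKM for 17741 gene IDs. The submitters' processing notes name HISAT2 and StringTie, and the build, annotation and strand setting are not given in the sources used here, so overlapping and antisense genes cannot be told apart from each other.

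The fit to the counts used all 12 libraries (4 groups of 3) and edgeR 4.0.16 under R 4.3.3: filterByExpr by group left 15286 genes, sizes were adjusted by TMM (trimmed mean of M values), and a robust quasi-likelihood group-means model gave the stress and control genotype contrasts and their interaction, with Benjamini-Hochberg adjustment over all tested genes. Standard errors were approximated from the log2 fold change and the root of the F statistic. The p-values measure the spread between these libraries. For a group with no library above 3 counts, the fold is a bound against 3 counts in that group's shallowest library. In simulated counts for the stress contrast over 15286 genes, 47 of 100 genes changed by 2 on the log2 scale and 96 of 100 changed by 4 were recovered, with 5 false calls. The simulation gave each gene a single mean common to all groups, with no effect of culture age and no outlying library. It changed only genes with a mean above 5 CPM. It therefore does not measure the error rate of the calls in the real libraries, nor recovery of genes near the floor.

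Alternatives used DESeq2 1.42.0, limma 3.58.1 (voom with sample weights, and log2(FPKM + 1) on the deposited FPKM), other scalings and filters, and leaving out libraries. The labels do not say whether replicate numbers pair the stress libraries. Same-numbered libraries deviated from their group means with correlations of -0.03, -0.21 and 0.05 across genes, which shows no pairing but cannot exclude one. No 2 stress libraries of a group were duplicates (chi-square per degree of freedom at least 99).

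The naming rule took called genes with a mean of at least 5 CPM in a stress group and groups that did not overlap: the 8 largest fold changes and the 5 with the most counts in each direction, and the members of runs of called neighbours, which gave 33 genes. A further 25 genes were chosen after their values were seen. The members, lists and rules were chosen with earlier results of these data known. The RefSeq table of assembly Chlamydomonas_reinhardtii_v5.5 matched 17738 IDs by locus tag and gave 0 of them a symbol or product, so the planned lists by function held no gene. It served for gene order only. The gene disrupted in vip1-1 was not analysed here as a check of the labels.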

Additional observations from a re-analysis of the deposited data

Results flagged for a closer look

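The genotype difference differed between old and fresh cultures, by the interaction term (edgeR's quasi-likelihood test, p adjusted by Benjamini-Hochberg), in 6 genes. It was 3.99 on the log2 scale in Cre17.g696500 (adjusted p = 0.0061), 3.34 in Cre09.g396772 (adjusted p = 0.0077), 3.25 in Cre09.g397660 (adjusted p = 0.012), 3.38 in Cre14.g620600 (adjusted p = 0.036) and 2.90 in Cre03.g154400 (adjusted p = 0.036), each higher in vip1-1 relative to wild-type in old cultures than in fresh ones. In Cre07.g334750 it was -7.61 (adjusted p = 0.045). All 6 genes were among the 239 called in old cultures. The stress libraries of the genotypes did not overlap in any of those 239, nor in 31.3% of all tested genes. That separation therefore adds nothing for the interaction.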

How the results depend on the processing

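The 239 calls in old cultures (149 higher, 90 lower) kept their number within 1.5 times under RLE size factors, removal of the abundant features, no filter, the fit on the compared groups alone (283, of which 158 were among the 239) and the replicate block in all 12 libraries (186, of which 157 were). They moved to 68 (61 higher, 7 lower) with library totals, 1079 (527 and 552) with DESeq2, 4023 (2191 and 1832) with voom and sample weights and 434 (393 and 41) with limma on FPKM. With at least 10 counts in every library there were 137 lower and 142 higher genes. A replicate block in the 6 stress libraries, added after seeing the data, gave 27 calls (17 higher, 10 lower), 21 of them among the 239. Whether the numbers pair libraries across groups is not stated in the labels, and the correlations above cannot exclude it. No wild-type stress library correlated best with its own number. Leaving out 1 stress library gave 53 to 161 calls, 34 to 95 higher and 15 to 81 lower. In control, 39 calls became 25 with library totals, 23 with at least 10 counts, 282 with DESeq2, 353 with voom, 161 on FPKM, 8 on the control groups alone, 12 with the replicate block and 9 to 849 without 1 library. In the interaction, 6 calls became 0 with library totals (351 at an unadjusted p under 0.05), 13 with at least 10 counts, 221 with DESeq2, 499 with voom, 30 on FPKM, 3 with the replicate block and 0 to 493 without 1 library. The causes were not tested. Of the 239, 29 were called under all of these settings other than the added block, where they could be evaluated. For the 58 genes recomputed one by one, 741 of 957 values kept the call, 216 lost it and 0 reversed. Among the stress libraries, wild-type replicate 2 had the fewest counts outside the abundant features (4956408), and among all 12 wild-type control replicate 1 did (3122872), which limits detection there.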
